A study of Mus musculus with 4 samples.

Results

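The replication-dependent histone genes were examined in LSK cells, which lack lineage markers, carry Kit and Sca-1 and include the stem cells of mouse blood with their early progeny. The members were the protein-coding genes named Hist1h to Hist4h in the annotation with at least 10 counts summed over the 4 libraries, which left 46 of 67 such genes, or 46 of the 45232 gene rows. Of these 46 genes, 5 encode H1, 12 encode H2A, 10 encode H2B, 9 encode H3 and 10 encode H4. The large Hist1 cluster on chromosome 13 holds 38 of them, the Hist2 cluster on chromosome 3 holds 5, the Hist3 cluster on chromosome 11 holds 2, and Hist4h4 lies on chromosome 6. The names include a few genes whose expression outside S phase is known, and these were kept because the name was the rule. Of the other 21 protein-coding genes, 19 had fewer than 10 counts, 9 of them none, and Hist1h2bm and Hist1h2bh were not analysed here. Just outside the limit lay Hist1h2bl with 9 counts and Hist1h4k with 8, and just inside lay Hist2h2ab and Hist1h2ai with 10 each and Hist1h2ad and Hist1h4b with 11 each.

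The cells came from mice that had received long-term haematopoietic stem cells of 1 of 2 kinds: with a scrambled control, labelled Scr, or with a knockdown of miR-99, labelled miR-99 KD and called the knockdown here (miR-99 KD 1 and 2 in the plots). All cells were sorted as GFP-positive 3 months after transplantation. Each group had 2 libraries, numbered as replicates in the titles. The labels name no strain, age or vector, and do not say whether host cells remained beside the GFP-positive ones. The design allows 1 comparison, of the knockdown with Scr.

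Histones package DNA: pairs of H2A, H2B, H3 and H4 form the nucleosome core and H1 binds the linker between cores. Most of this protein is made in S phase from clustered genes without introns. Their messenger RNAs usually end in a short stem-loop, bound by Slbp, in place of a poly(A) tail, and are degraded when replication stops. Some of these genes also give polyadenylated RNA from a signal further downstream, which is known from differentiated cells. Blood stem cells are known for long quiescence, while much of the LSK fraction divides.

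The stem-loop is shown first because it is the feature most of these RNAs share and the point from which their annotated ends were measured. It was searched as a pattern of 16 letters in the transcripts of GENCODE M21, on the transcribed strand only. It lay in the annotated transcripts of 46 of 67 protein-coding genes of the family, and of 35 of the 46 members. Among 21834 other protein-coding genes, 0.137% held the pattern anywhere in a transcript. In the family it started between 21 and 58 bases after the stop codon. It is given, 5′ to 3′ and written with T, for the member with the most counts of H1, H2A, H3 and H4, for the H2B partner of that H2A gene, and for 2 more H4 genes, with the stem-loop in capitals and 5 flanking bases on each side.
Hist1h1c: caaaaGGCTCTTTTCAGAGCCaccac
Hist1h2ae: acaaaGGCTCTTTTCAGAGCCattca
Hist1h2bg: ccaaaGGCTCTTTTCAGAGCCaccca
Hist1h3d: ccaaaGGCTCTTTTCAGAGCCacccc
Hist1h4d: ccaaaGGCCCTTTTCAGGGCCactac
Hist1h4i: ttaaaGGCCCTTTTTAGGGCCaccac
Hist1h4b: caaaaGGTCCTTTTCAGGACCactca
Every one of the 34 stem-loops in H1, H2A, H2B and H3 genes opened with GGCTC, whereas in H4 genes 10 of 12 opened with GGCCC and 2, Hist1h4b and Hist1h4j, with GGTCC. No stem-loop was found in the annotated transcripts of Hist1h2bc and Hist2h2be, the H2B genes with the most counts, nor in those of Hist1h1a and Hist1h1b. No match says only that the letters are not in these annotated transcripts.

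H2A and H2B genes lie mostly in divergent pairs that share the stretch between their starts. The annotation held 12 such H2A-H2B pairs with starts at most 1000 bases apart. The window of Hist1h2bg is printed because it is shared with Hist1h2ae, 176 bases away by annotated starts, and the values of this pair lay in opposite directions between the groups. The window of Hist2h2ac is printed because the gene is paired with Hist2h2be, 239 bases away, the member with the smallest p. Both are from RefSeq on GRCm38.p6, cover 250 bases before and 50 after the annotated start, and run 5′ to 3′ on the named gene's strand. Capitals mark the octamer ATTTGCAT, the CCAAT box CCAAT and the TATA box TATAAA on either strand.
Hist1h2bg, chr13:23571150-23571449, plus strand: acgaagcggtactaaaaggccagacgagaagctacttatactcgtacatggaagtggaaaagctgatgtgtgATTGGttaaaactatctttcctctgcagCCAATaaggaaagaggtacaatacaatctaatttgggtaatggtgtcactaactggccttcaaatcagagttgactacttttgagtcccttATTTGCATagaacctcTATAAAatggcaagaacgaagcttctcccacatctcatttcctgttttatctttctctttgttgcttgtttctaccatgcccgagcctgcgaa
Hist2h2ac, chr3:96220831-96221130, minus strand: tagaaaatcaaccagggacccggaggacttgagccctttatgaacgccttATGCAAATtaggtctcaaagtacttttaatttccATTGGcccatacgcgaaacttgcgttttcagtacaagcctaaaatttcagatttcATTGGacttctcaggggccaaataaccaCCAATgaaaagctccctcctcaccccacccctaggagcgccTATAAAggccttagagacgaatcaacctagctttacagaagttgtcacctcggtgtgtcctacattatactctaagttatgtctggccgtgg
Promoter windows were matched for 41 of the 46 members. The octamer was in 8 of 41 windows (19.5%), 5 of H2A and 3 of H2B genes, against 1.74% of all 32851 windows of the table. The CCAAT box was in 35 of 41 (85.4%) against 37.4%, and the TATA box in 26 of 41 (63.4%) against 13.6%. By class, the CCAAT box was in every matched window of H1, H2A, H2B and H3 genes but in 3 of 9 H4 windows. Each motif was counted on its own, with overlaps kept, the divergent windows share sequence and are not independent, and a match is a description, not a site.

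Histone reads were rare. The 46 genes took 8342 counts in Scr 1, 5761 in Scr 2, 5674 in knockdown 1 and 7113 in knockdown 2. These were 0.0258% of all gene counts in Scr 1 (exact 95% binomial interval 0.0252% to 0.0263%), 0.0203% in Scr 2 (0.0197% to 0.0208%), 0.0208% in knockdown 1 (0.0203% to 0.0213%) and 0.0260% in knockdown 2 (0.0254% to 0.0267%). Each group thus held 1 library near the higher and 1 near the lower value, and the groups overlapped. The mean share was 0.0230% ± 0.0039 in Scr and 0.0234% ± 0.0037 in the knockdown (SD, n = 2 each), a ratio of 1.02. The intervals cover counting error only, since PCR copies are not independent molecules, and 2 libraries against 2 cannot give an exact two-sided permutation p below 0.333.

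A few genes carried most of these reads. Hist1h1c alone held 20.7% of the 26890 histone counts. The first 5 genes, Hist1h1c, Hist1h1e, Hist1h2bc, Hist1h1b and Hist1h4d, held 59.3%, and the first 10, which add Hist2h2be, Hist1h4i, Hist1h2ae, Hist3h2a and Hist1h1d, held 84.0%. Within classes, the leading gene held 46.1% of H1 counts (Hist1h1c), 39.1% of H2A (Hist1h2ae), 42.4% of H2B (Hist1h2bc), 29.8% of H3 (Hist1h3d) and 53.5% of H4 (Hist1h4d). Per kilobase of exon, Hist1h1c ranked first in 3 libraries, with 33.8, 27.2 and 33.1 CPM per kb (counts per 1000000 counts of the TMM-scaled library size) in Scr 1, Scr 2 and knockdown 1. In knockdown 2 Hist1h1b ranked first with 45.5 CPM per kb and Hist1h1c second with 29.2. By coding length instead, Hist1h4d ranked first in knockdown 2 with 86.9 CPM per kb, Hist1h1c had 71.6 and Hist1h1b 50.5. Hist1h1c stayed first by that length in Scr 1, Scr 2 and knockdown 1.

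The genes with many counts differed from the rest in their annotated ends. Of the 46 members, 20 had a transcript that ran more than 100 bases past the stem-loop (a long end), 15 ended within 100 bases of it (a short end), and 11 had no stem-loop found. Of the 10 genes with the most counts, 7 had a long end, 3 had none found and 0 had a short end, and the same split held for the first 10 by counts per kilobase of exon. The highest summed count was 5573 among long ends, 2710 where none was found and 234 among short ends. The median per kilobase of exon was 146 counts for long ends, 84.1 for short ends and 142 where none was found. Genes with none found do not share a kind of end. In Hist1h2ak, for example, the annotated transcript had 393 bases with 390 coding, too few to reach a stem-loop, while Hist2h2be had 2620. In Hist1h1c the annotated transcript ran 840 bases past the stem-loop, in Hist1h4d 770 and in Hist1h2ae 151. The labels give total RNA as the starting material and do not say how the first strand was primed. Some other RNAs without a poly(A) tail, picked after the values were seen, had few counts. Per library, Rn7sk had 8 to 48, Rpph1 8 to 22 and Terc 4 to 20. Scarna2 had 1 to 10, Scarna13 1 to 5 and Rmrp 0 to 1. No expected level was available to set these counts against, and nothing on histone RNAs was drawn from them. Histone counts here were not taken as amounts of RNA in the cells, and what part the ends have in the counts was not tested.

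Sequence shared with other genes also went with low counts. Reads with several alignments were not assigned to genes, and made up 18.04% to 21.85% of reads per library. A gene's stretches of 50 bases were counted as shared if they recurred in any other annotated gene, in the family or outside it. The median share was 26.9% in the 26 members with at least 100 counts, 57.5% in the 20 members with fewer, and 88.7% in the 19 genes under the limit. All 13 H4 genes encode the same protein, yet their counts ranged from 2 to 2276. Of 18 H2A genes, 9 encode the same protein, with 0 to 1387 counts, and of 12 H3 genes 7 do, with 0 to 182. Values of the shorter and more similar genes are therefore uncertain, and counts here describe genes, not the supply of a protein.

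Of the 46 members, 33 passed the filter on low counts and were tested: 5 of H1, 8 each of H2A and H2B, and 6 each of H3 and H4. None had a Benjamini-Hochberg adjusted p under 0.05 over the 15320 genes tested by edgeR's quasi-likelihood test, and neither had any other gene (0%). At an unadjusted p under 0.05, 0 members were higher in the knockdown, against 5.97% of all genes, and 1, Hist2h2be, was lower, against 9.63%. DESeq2 called 0 members in either direction, against 1.66% of all genes higher and 4.13% lower. It gave no adjusted p for 12 of the 33 members and for 2377 of the 15320 genes, which stay in these percentages. In 6 members both knockdown libraries lay above both Scr libraries (24.5% of all genes), in 3 both lay below (26.0% of all genes), and in 24 the groups overlapped. The median log2 difference, knockdown minus Scr, was 0.21 over the 33 members and 0.016 over all genes. It was -0.058 without knockdown 2 and reached 0.51 without Scr 1. The standard errors of the 33 log2 differences ran from 0.19 to 0.92 with a median of 0.58, which bounds what these libraries can show. In bulk RNA, the number of cells that make histone RNA and the amount per cell cannot be told apart.

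**Figure D1:**
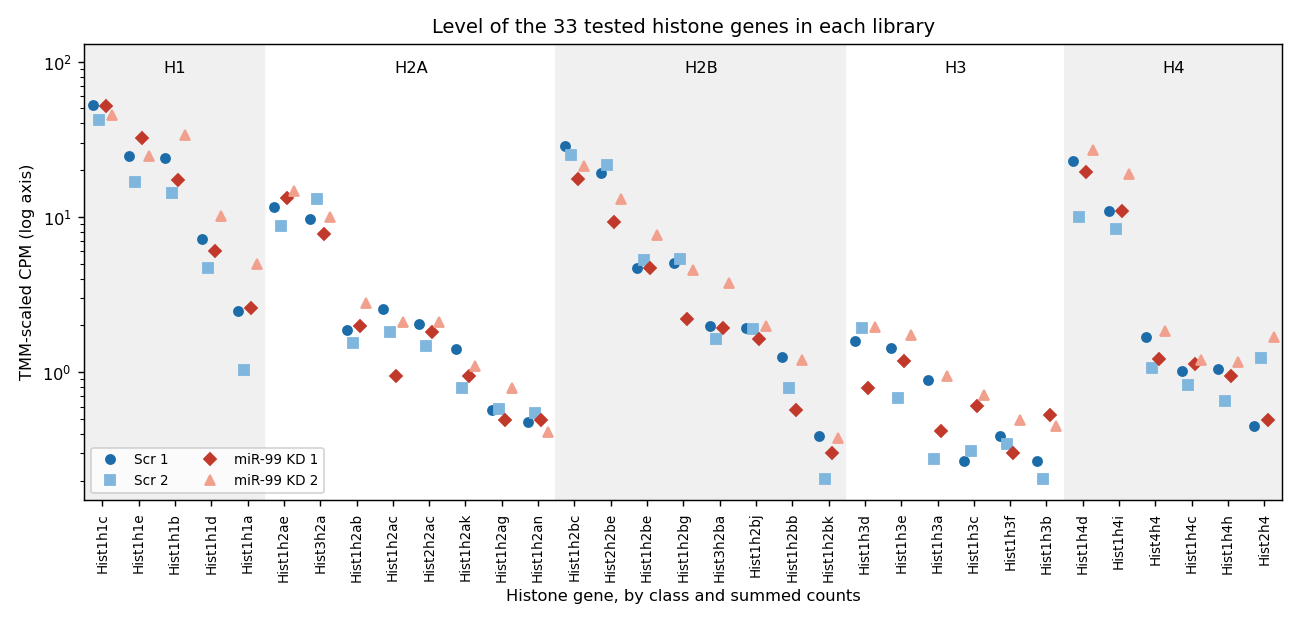
Level of the 33 tested histone genes in each library, in TMM-scaled CPM on a log axis, with genes grouped by class and ordered by summed counts. Each point is 1 library. Levels ran from 0.206 to 52.8 CPM, and knockdown 2 was the highest library for 21 of the 33 genes.

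**Figure D2:**
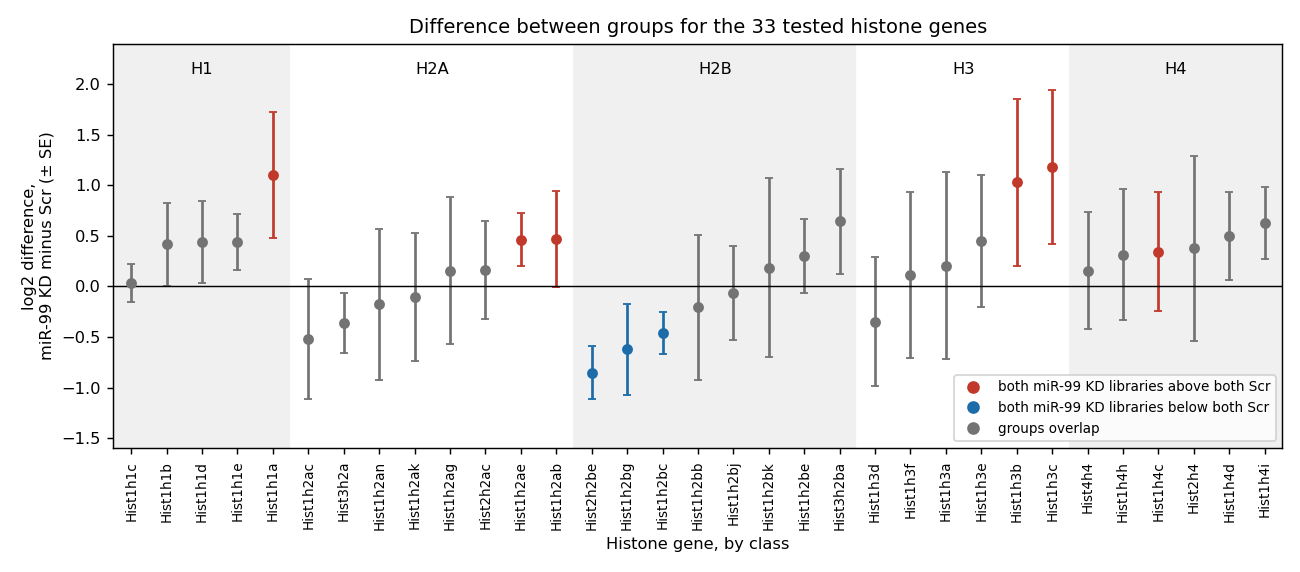
Log2 difference between the knockdown and Scr for the same 33 genes, with the standard error of the edgeR fit (n = 2 per group) as bars. Red marks the 6 genes with both knockdown libraries above both Scr libraries, blue the 3 with both below, and grey the 24 that overlap. All 3 blue points are H2B genes.

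Linker histone genes had the highest sums per kilobase of exon, at 57.2 to 95.5 CPM per kb over the libraries. This order depended on the length used: per kilobase of coding sequence the H2B sum was higher in Scr 2, at 165 against 122 CPM per kb for H1, and in Scr 1 they stood at 167 and 172. Summed over the 5 H1 members, levels were 111 and 79.2 CPM in Scr 1 and 2 and 110 and 119 CPM in knockdown 1 and 2, so that Scr 2 was low and the groups overlapped. Hist1h1c (ENSMUSG00000036181), which encodes H1.2, had 52.8 and 42.4 CPM in Scr against 51.7 and 45.5 CPM in the knockdown. Its log2 difference was 0.031 ± 0.19 (SE), with an edgeR adjusted p of 0.950, and it turned negative under 2 other scalings and without Scr 2 or knockdown 1. Hist1h1e, which encodes H1.4, had 24.8 and 16.8 CPM in Scr against 32.1 and 24.6 in the knockdown. Hist1h1b, which encodes H1.5, had 24.0 and 14.3 in Scr against 17.4 and 33.8 in the knockdown, and Hist1h1d, which encodes H1.3, had 7.26, 4.67, 6.03 and 10.2 in the same order. In both, the highest and the lowest library were knockdown 2 and Scr 2. Hist1h1a, which encodes H1.1, was the only H1 gene whose groups did not overlap, with 2.48 and 1.03 CPM in Scr against 2.58 and 5.01 in the knockdown. Its log2 difference was 1.11 ± 0.62 with an edgeR adjusted p of 0.434. Scr 1 and knockdown 1 differed by little in CPM for this gene, and before scaling they had 83 and 68 counts. Scr 2 was the lowest library for all 5 H1 genes. The median log2 difference was 0.44 over H1 genes, with 5 of 5 above 0.

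H2A genes showed no common direction. Their summed level was 30.7 and 29.1 CPM in Scr against 28.3 and 34.7 CPM in the knockdown. Hist1h2ae had 11.6 and 8.79 CPM in Scr against 13.3 and 14.8 in the knockdown, a log2 difference of 0.46 ± 0.26 with an edgeR adjusted p of 0.430, and its groups did not overlap. Hist1h2ab likewise lay higher in both knockdown libraries, at 1.97 and 2.79 CPM against 1.88 and 1.55, although Scr 1 and knockdown 1 differed by little. Hist3h2a, from the small cluster on another chromosome, had 9.71 and 13.1 CPM in Scr against 7.73 and 9.98 in the knockdown, so that the groups overlapped with a log2 difference of -0.36 ± 0.29. Hist1h2ac had 2.57, 1.82, 0.948 and 2.11 CPM in Scr 1, Scr 2, knockdown 1 and knockdown 2. Of the 8 tested H2A genes, 4 had a log2 difference above 0 and 4 below, with a median of 0.0245. That median changed sign under 2 other scalings, without the filter, and without Scr 2 or knockdown 2.

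H2B was the only class whose summed level did not overlap between the groups. Of all single genes tested, 26.0% likewise lay lower in both knockdown libraries than in both Scr libraries, and 24.5% lay higher. The H2B sum was 63.3 and 62.6 CPM in Scr against 38.5 and 54.1 CPM in the knockdown. The means were 62.9 ± 0.50 and 46.3 ± 11.0 CPM (SD, n = 2 each), a ratio of 0.736. The ratio ran from 0.613 to 0.860 when each library was left out, and the exact permutation test cannot go below 0.333 here. Its share of histone counts was 25.4% (exact 95% binomial interval 24.5% to 26.3%) and 31.6% (30.4% to 32.9%) in Scr and 17.9% (16.9% to 18.9%) and 20.2% (19.3% to 21.2%) in the knockdown. The summed H2B level was 2.06 and 2.15 times that of H2A in the Scr libraries and 1.36 and 1.56 times in the knockdown libraries.

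Hist1h2bc and Hist2h2be made up this difference. Hist1h2bc had 28.5 and 25.0 CPM in Scr against 17.7 and 21.2 CPM in the knockdown, a log2 difference of -0.46 ± 0.21 with an edgeR adjusted p of 0.356. Hist2h2be, whose RNA is known to be made outside S phase as well, had 19.1 and 21.5 CPM in Scr against 9.29 and 13.1 CPM in the knockdown. Its log2 difference was -0.86 ± 0.26, with an unadjusted edgeR p of 0.0212, an adjusted p of 0.259 and a DESeq2 adjusted p of 0.0908, the lowest of its alternatives, which reached 0.897. It was lower in 2 of 2 knockdown libraries and did not pass either test. Both genes lay lower under each alternative tried, with log2 differences of -0.60 to -0.34 for Hist1h2bc and -1.13 to -0.63 for Hist2h2be. The other 8 H2B genes together had 15.7 and 16.1 CPM in Scr against 11.6 and 19.8 CPM in the knockdown, and without the 2 leading genes the ratio was 0.988.

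**Figure D3:**
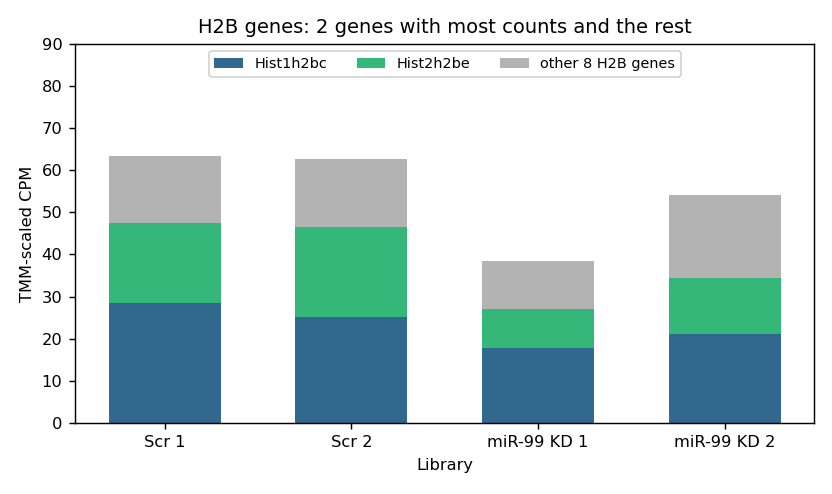
Level of the H2B genes in each library, stacked as Hist1h2bc, Hist2h2be and the sum of the other 8 members, in TMM-scaled CPM from 0. The lower and middle segments are shorter in both knockdown libraries, while the upper segment is shortest in knockdown 1 and longest in knockdown 2.

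The remaining H2B genes went in various directions. Hist1h2bg had 5.02 and 5.39 CPM in Scr against 2.20 and 4.56 in the knockdown, a log2 difference of -0.62 ± 0.45 with an edgeR adjusted p of 0.537. It is the divergent partner of Hist1h2ae, whose knockdown values lay above those of Scr. Hist1h2be had 4.72, 5.25, 4.66 and 7.64 CPM in Scr 1, Scr 2, knockdown 1 and knockdown 2, and its groups overlapped. Of 4 divergent pairs with both genes tested, Hist1h2ac and Hist1h2bc had log2 differences of -0.52 and -0.46, Hist1h2ae and Hist1h2bg 0.46 and -0.62, Hist1h2ag and Hist1h2bj 0.16 and -0.068, and Hist2h2ac and Hist2h2be 0.16 and -0.86. The H2B gene had the lower value in 3 of the 4 pairs, and no difference between partners was tested. The median over the 8 tested H2B genes was -0.14, and it turned to 0.052 without Scr 1 and 0.15 without knockdown 1.

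H3 genes had the lowest levels, with sums of 4.88 to 9.63 CPM per kb of exon. Without the division by length the sums were 5.38 and 4.29 CPM in Scr against 4.09 and 7.42 CPM in the knockdown. The 9 members had 22 to 182 counts each over all libraries, so that single values rest on few reads. Hist1h3d, with the most, had 1.58 and 1.92 CPM in Scr against 0.796 and 1.96 in the knockdown, and Hist1h3e had 1.43, 0.687, 1.18 and 1.73 in the same order. Hist1h3a had 0.897, 0.275, 0.417 and 0.941 CPM. The groups of these 3 genes overlapped. Hist1h3c had 0.269 and 0.309 CPM in Scr against 0.606 and 0.715 in the knockdown, a log2 difference of 1.18 ± 0.77 with an edgeR adjusted p of 0.490. Hist1h3b had 0.269 and 0.206 CPM in Scr against 0.531 and 0.452 in the knockdown, a log2 difference of 1.03 ± 0.83 with an edgeR adjusted p of 0.570. These 2 genes rested on 53 and 41 counts in all. The H3 median of 0.33 was -0.063 without knockdown 2 and 1.08 without Scr 1.

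H4 levels differed between the libraries of a group, and the groups overlapped. Their summed level was 38.5 and 22.7 CPM in Scr against 34.4 and 52.5 CPM in the knockdown, a ratio of 1.42 that ran from 1.12 without knockdown 2 to 1.92 without Scr 1. Hist1h4d had 22.8 and 9.92 CPM in Scr against 19.4 and 26.9 in the knockdown, a log2 difference of 0.50 ± 0.44 with an edgeR adjusted p of 0.608. Hist1h4i had 10.9 and 8.38 CPM in Scr against 10.9 and 19.01 in the knockdown, a log2 difference of 0.63 ± 0.35 with an edgeR adjusted p of 0.434. These 2 genes held 86.5% of H4 counts. Hist4h4, on another chromosome than the main cluster, had 1.67, 1.06, 1.21 and 1.85 CPM in Scr 1, Scr 2, knockdown 1 and knockdown 2. Hist1h4c had 1.02 and 0.824 CPM in Scr against 1.14 and 1.21 in the knockdown, and was the only tested H4 gene whose groups did not overlap. All 6 tested H4 genes were highest in knockdown 2, and all 6 log2 differences were above 0, with a median of 0.36.

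**Figure D4:**
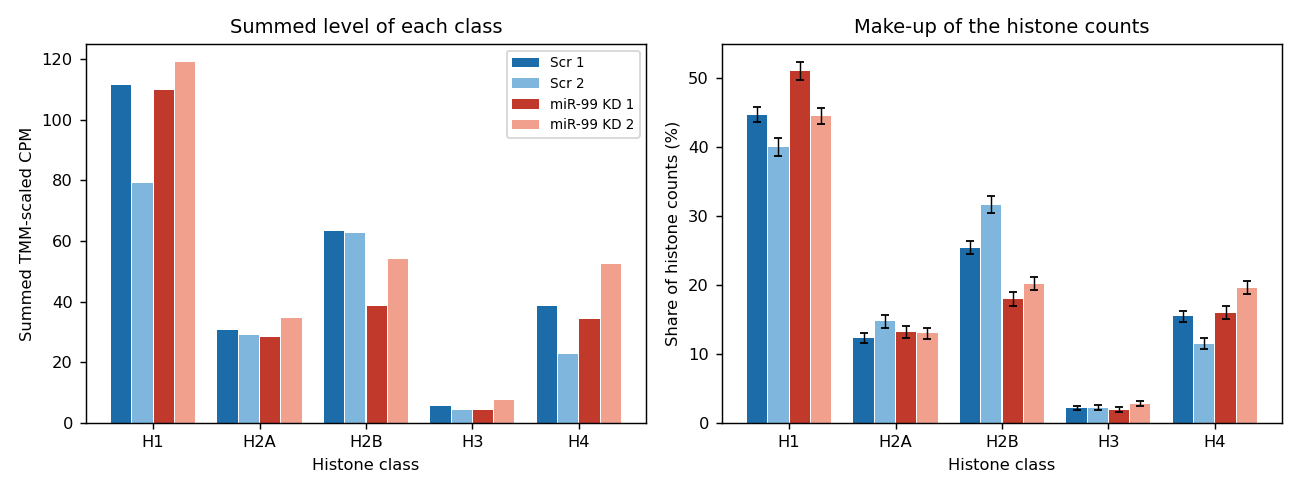
Summed level of the members of each histone class in TMM-scaled CPM (left) and the share of each class in the histone counts of a library (right), as bars from 0, 1 bar per library. Error bars on the right are exact 95% binomial intervals for counting error. H2B is the class in which both knockdown libraries lie below both Scr libraries, as 26.0% of all single genes tested also do.

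The 13 members that were not tested had 10 to 45 counts each. They are given by their range alone, since single counts decide their order.

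The 2 libraries of each group stood apart. Taken as the median over genes of the log2 level minus the gene's own mean over the 4 libraries, the 33 histone genes stood at 0.092 and -0.37 in the Scr libraries and at -0.16 and 0.38 in the knockdown libraries. Over all genes tested these medians lay between -0.0019 and 0.0213. The highest library was knockdown 2 for 21 of 33 histone genes, against 32.6% of all genes, and the lowest was Scr 2 for 19, against 25.8%. The share of mitochondrial genes in gene counts, 0.990% in Scr 1, 0.357% in Scr 2, 0.729% in knockdown 1 and 0.9995% in knockdown 2, followed the same order of libraries, and its part in the histone levels was not tested.

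**Figure D5:**
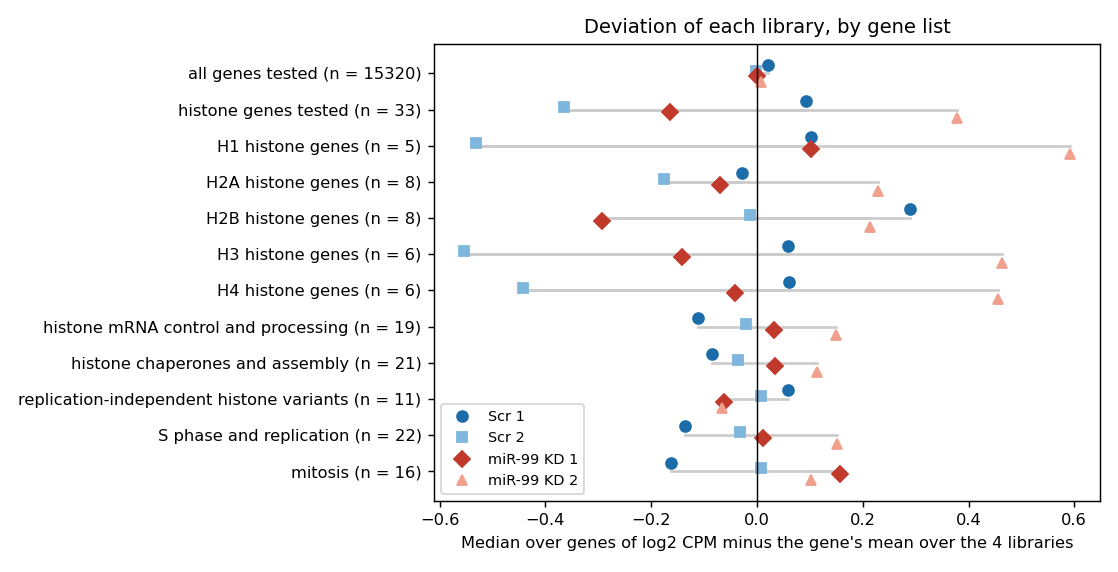
Deviation of each library from the mean of the 4, as the median over the genes of a list on the log2 CPM scale, for all genes tested, the histone genes and their classes, and 5 lists of related genes. The histone genes spread from -0.37 in Scr 2 to 0.38 in knockdown 2, and the 22 S phase genes from -0.14 in Scr 1 to 0.15 in knockdown 2.

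Genes that act on histone RNA and in S phase had narrower medians across the libraries than the histone genes, as the plot of deviations shows. The control and processing list had 19 genes, all tested, with a median log2 difference of 0.16. At an edgeR unadjusted p under 0.05, 4 lay higher in the knockdown (5.97% of all genes) and 0 lower (9.63% of all genes). Slbp, which binds the stem-loop, had 456 and 502 CPM in Scr against 599 and 584 CPM in the knockdown, a log2 difference of 0.30 ± 0.13 with an edgeR adjusted p of 0.347. Npat, the coactivator of histone gene transcription in S phase, had 94.9 and 103 CPM in Scr against 94.8 and 129 in the knockdown. Cyclin E, whose kinase acts on Npat, showed the largest difference of the list. Ccne1 had 142 and 149 CPM in Scr against 265 and 359 in the knockdown, a log2 difference of 1.10 ± 0.19 with an edgeR adjusted p of 0.199 and a DESeq2 adjusted p of 1.92e-05. Ccne2 had 121 and 158 CPM in Scr against 221 and 236 in the knockdown, with adjusted p-values of 0.227 by edgeR and 0.0135 by DESeq2. Ncbp1 and Srrt, of the cap-binding complex and its partner, had log2 differences of 0.55 and 0.43, and the first passed DESeq2 at an adjusted p of 0.0443. No gene of the list passed edgeR with all libraries and the filter.

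In the S phase and replication list of 22 genes, the median log2 difference was 0.16. At an edgeR unadjusted p under 0.05, 0 lay lower in the knockdown (9.63% of all genes) and 3 higher (5.97% of all genes). They were Cdc45, of the replicative helicase, Rrm2, of ribonucleotide reductase, and Cdc6, which loads the helicase, with log2 differences of 0.71, 0.47 and 0.49, and Cdc45 passed DESeq2 at an adjusted p of 0.00445. Pcna, the sliding clamp of replication, had 200 and 182 CPM in Scr against 210 and 252 in the knockdown. Mcm2, of the helicase, had 537 and 667 CPM in Scr against 621 and 564 in the knockdown. In the mitosis list of 16 genes, 4 lay higher at an edgeR unadjusted p under 0.05 (5.97% of all genes) and 0 lower (9.63%). The 4 were Ube2c, Cdk1, Mki67 and Cenpe, with log2 differences of 0.59, 0.45, 0.49 and 0.35. Ube2c passed DESeq2, at an adjusted p of 0.0184. Among 21 chaperone and assembly genes, 2 lay higher at an edgeR unadjusted p under 0.05 (5.97% of all genes) and 1 lower (9.63%). Higher were Asf1b (0.67) and Hat1 (0.44), which hand on and acetylate new H3-H4. Lower was Chaf1b (-0.34), of the assembly factor CAF-1. Asf1b passed DESeq2 at an adjusted p of 0.0288.

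The replication-independent histone variants differed among themselves in level and direction. H3f3b, which encodes H3.3, had 607, 647, 524 and 559 CPM per kb of exon in Scr 1, Scr 2, knockdown 1 and knockdown 2. Sums over all 9 H3 members were 6.85, 4.88, 5.39 and 9.63 CPM per kb in the same order. These values compare counts, not amounts of RNA. Clustered histone RNAs usually end in the stem-loop in place of a poly(A) tail, and the labels do not give the priming. Reads with several alignments were not assigned, and the 9 H3 members shared 24.8% to 87.6% of their stretches with other genes. What part either has in the gap was not tested. H3f3a, which also encodes H3.3, had 75.3 and 60.1 CPM in Scr against 67.4 and 82.9 in the knockdown. H1f0, the linker histone of resting and differentiated cells, had 178 and 199 CPM in Scr against 106 and 76.6 CPM in the knockdown, so that the groups did not overlap. Its log2 difference was -1.05 ± 0.20, with an adjusted p of 0.200 by edgeR and 4.03e-04 by DESeq2. H1fx, another linker histone, had 41.3 and 32.5 CPM in Scr against 19.9 and 23.2 in the knockdown, with a log2 difference of -0.78 ± 0.21 and adjusted p-values of 0.237 by edgeR and 0.0421 by DESeq2. Cenpa, the H3 variant of centromeres, had 341 and 343 CPM in Scr against 412 and 474 in the knockdown. H2afz (0.28) and H2afx (0.24) had log2 differences above 0 that did not pass. Of the 11 variant genes, 1 lay higher (5.97% of all genes) and 2 lower (9.63% of all genes) at an unadjusted edgeR p under 0.05. The median log2 difference of the 11 was -0.21. The linker variants H1f0 and H1fx thus had lower values in both knockdown libraries, while the log2 differences of the 5 clustered H1 genes ran from 0.031, in Hist1h1c, to 1.11. The difference between these 2 sets was not tested.

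Gene counts per library ran from 27295197 to 32350590, and 19060 to 23052 genes had at least 1 count. A list of surface markers held Kit, Ly6a (Sca-1), Cd34, Slamf1, Cd48 and Procr, of which the LSK definition above names only Kit and Sca-1. Of these 6 genes, 3 (Kit, Cd34 and Procr) had an edgeR unadjusted p under 0.05 and lay lower (9.63% of all genes). Ly6a had an edgeR unadjusted p of 0.0729. The summed level of the 6, mostly Kit and Cd34, was 2003 and 2341 CPM in Scr against 1155 and 1171 CPM in the knockdown. All 10 neutrophil markers overlapped, with sums of 8179 and 6130 CPM in Scr against 28849 and 5241 CPM in the knockdown, the highest in knockdown 1. Of 9 B cell markers 4, and of 7 erythroid markers 6, lay higher at an edgeR unadjusted p under 0.05 (5.97% of all genes). The B cell markers summed to 78.8 and 75.9 CPM in Scr 1 and 2 against 309 and 97.7 CPM in knockdown 1 and 2. Among them, Dntt had 6.84 and 39.6 CPM in Scr against 53.9 and 18.5 CPM in the knockdown. The erythroid markers summed to 5256 to 5628 CPM in Scr against 7635 to 8480 CPM in the knockdown. The 7 T and NK cell markers summed to 221 and 227 CPM in Scr against 163 and 125 CPM in the knockdown, mostly Nkg7, while Cd3e and Cd3g were at 0 in both Scr 2 and knockdown 2. The 6 macrophage markers summed to 107 to 257 CPM in Scr and 171 to 265 CPM in the knockdown, and the 6 endothelial and stromal markers to 128 to 175 and 120 to 194 CPM. The part of these cells in the histone levels, and in those of Hist1h2bc, Hist2h2be and H1f0, was not tested.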

How the data were processed

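RNA of sorted LSK cells was sequenced in 2 groups of 2 libraries, grouped by the labels. Sorted cells went into Trizol LS, and SMARTer amplification, a PCR method for little RNA, gave the libraries, per the labels' protocols. Each deposited file lists the number of reads (raw counts) of 1 library for each Ensembl gene. The submitters' processing notes name HTSeq, STAR, DESeq2 and Picard and the build mm9. Tool versions, annotation release and use of strand: not given in the sources used here. Antisense neighbours therefore cannot be told apart. Gene counts per library ran from 27295197 to 32350590. Reads assigned to no gene (8.31% to 13.8%) or with several alignments (18.04% to 21.9%) stayed out of library sizes and tests.

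Symbols, transcripts and coding spans came from GENCODE M21 and promoters from RefSeq, both on GRCm38, a later build than mm9. Of 45232 rows, 44585 matched a symbol. The members and lists were chosen with earlier results of these data known. The test was edgeR's (4.0.16, R 4.3.3) quasi-likelihood test on the genes that filterByExpr kept, after TMM scaling, with Benjamini-Hochberg adjustment over 15320 genes at 0.05 and no replicate block, first tested on simulated data. CPM values use TMM-scaled sizes, per-kilobase values divide by the joined exons, and deviations add a prior count of 2. P-values measure the spread between these libraries only.

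The text names the 4 members with the most counts per class, the members whose groups do not overlap (at most 6 each way, by p), up to 4 genes of each companion list with an unadjusted p under 0.05, and 9 fixed companions (Slbp, Npat, H2afz, H2afx, H3f3a, H3f3b, H1f0, Mcm2 and Pcna). Other genes were named after their values were seen. Alternatives were DESeq2 1.42.0, voom of limma 3.58.1, 3 other scalings, no filter, a filter at 10 CPM in 2 libraries, a threshold of 0.10, a fit with the replicate number as a block, and fits that leave out 1 library. Totals pasted below the gene rows carry replicate numbers that differ from the labels in 3 libraries, 1 further pasted total, 29793890 under the name Scr-1, equals the gene counts of no library analysed here, and mice were not taken to be paired by number.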

Additional observations from a re-analysis of the deposited data

How the results depend on the processing

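No histone gene passed an adjusted p of 0.05 in edgeR, DESeq2 or voom, or under any other alternative. Over all genes the calls were 0 in edgeR, 887 with DESeq2 and 1064 without the filter, and 0 to 511 with each library left out (511 without knockdown 1, 105 without knockdown 2). Unadjusted, edgeR gave 2390 genes and DESeq2 2667 with p under 0.05. Leaving out libraries gave 737 genes without Scr 2, 1093 without Scr 1 and 4164 without knockdown 1, and 0 to 3 histone genes. With a replicate block edgeR called 0 genes and 0 histone genes, and the median histone log2 difference was 0.26. Same-numbered libraries deviated with a correlation of 0.0481, and with 2 pairs the numbers were not taken to pair them. That median was 0.12 with library totals only, 0.13 without the filter and 0.38 with the 9 genes above 10 CPM, and -0.0585 to 0.51 with each library left out. The all-gene median was -0.071 with library totals only and -0.11 without the filter. The ratio of histone shares was 0.903 to 1.16 with each library left out. Of 251 pairs of a named member and an alternative, 11 changed sign and none changed its call. Hist1h1c stood at -8e-04 with upper-quartile scaling and -0.0573 with library totals only. With each library left out, values crossed 0 in 9 genes: Hist1h1c (-0.0981 to 0.20), Hist1h1b (-0.14 to 0.83), Hist1h2be (-0.0968 to 0.62), Hist1h3d (-1.13 to 0.16), Hist1h3a (-0.49 to 1.29), Hist4h4 (-0.18 to 0.52), Npat (-0.0627 to 0.38), H3f3a (-0.0082 to 0.32) and Mcm2 (-0.17 to 0.16). Of the companion genes, Ccne1 and H1f0 passed edgeR without knockdown 1 (adjusted p = 0.0388 for both), as did Cdc45 (0.0417), and without the filter Ccne1 (5.24e-05), H1f0 (9.9e-05), Ccne2 (0.0145), Cdc45 (0.0174) and Asf1b (0.0237) passed. Over all alternatives the adjusted p of these 5 reached 0.897. A lone library was assumed to vary like the other group, and the cause of these changes was not tested. Counts at unadjusted p, class medians, class sums and companion genes were added after the data were seen. Depth limits the members with few reads, and standard errors of the 33 log2 differences reached 0.92.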
